A study of Homo sapiens with 8 samples.

Results

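ACHN, 1 of the 4 established human kidney cancer lines of the study, is described here by what set its transcripts apart from those of CAKI2, A498 and CAKI1, with and without the drug. The members were chosen by label: 2 of the 8 arrays held ACHN RNA and the other 6 held the RNA of the other 3 lines, 2 arrays a line. In each line 1 array held cells given 75 nM A939572, a small-molecule inhibitor of stearoyl-CoA desaturase, for 24 h, and 1 held cells given its solvent DMSO for 24 h. All lines came from a commercial cell bank and grew in the same serum-supplemented medium. The submitters call all 4 clear cell lines. Each line is 1 culture lineage, and each line and treatment has 1 array, so no group is replicated. The 2 arrays of a line are not independent lines, and a value called higher or lower in ACHN describes this line against these 3 others.

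Clear cell renal carcinoma is a cancer of the kidney tubule epithelium in which loss of the VHL protein commonly stabilises hypoxia-inducible factors, and cells of this type often store lipid droplets. Lines grown from kidney cancers commonly keep PAX8, a transcription factor of the kidney lineage, and the simple keratins KRT8 and KRT18, while they lose most transport proteins of the mature tubule. A line carries the gene losses and gains, the lineage factors and the epigenetic state of its own tumour and of its years in culture, so lines of the same diagnosis can differ in many transcripts.

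Levels are given as log2(signal + 16) after quantile normalization over the 8 arrays, and a difference of 1 on this scale is close to 2-fold for bright genes and more than 2-fold for dim ones. Of 19775 genes with a probe set, 12093 were compared, those whose mean level reached 6.41, the middle value over the probe sets of the arrays. Levels near 4 to 6 correspond to the dimmest signals on these arrays, and the files used here hold no detection calls, so such a value is a dim signal and not a measured absence. The authors had scaled every array to a trimmed mean of 500.1 signal units, and the arrays' median signals lay between 68.4 and 84.0 units.

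PAX8 fitted the label of a kidney line, and the simple keratins KRT8 and KRT18 that of an epithelial one. Of 30 listed factors of the kidney lineage 17 were not tested. PAX8 had 13.02 in A939572 and 12.39 in DMSO in ACHN, against a lowest, median and highest level of 11.97, 12.23 and 12.66 in the other lines. KRT18 had 13.81 in A939572 and 14.38 in DMSO in ACHN, against 12.73 to 14.22 in the other lines, and KRT8 had 11.71 and 12.52, against 10.45 to 12.53. These genes were bright in every line. Most markers of other cell types were dim in ACHN. PTPRC, the common leukocyte antigen, had 5.05 in A939572 and 5.30 in DMSO, VWF of endothelium 4.39 and 4.88, and ALB of hepatocytes 5.41 and 5.05. The leukocyte marker ITGB2 went the other way. It was under the filter on mean level, with 8.22 in A939572 and 9.33 in DMSO in ACHN, against 4.24 to 6.57 in the other lines. Of the leukocyte markers 1 of 11 with a probe set passed the filter on low levels, of the endothelial markers 1 of 10, and of the hepatocyte markers 0 of 10. The log2 of the summed signal of the leukocyte markers was 9.98 to 10.51 in ACHN, above the 9.23 to 9.70 of the other lines. That of the endothelial markers was 8.98 to 9.04, against 8.95 to 9.70, and that of the hepatocyte markers 8.63 to 8.88, against 8.88 to 9.33. The actin 3′ to 5′ ratio, a sign of RNA quality, was 4.22 in ACHN with A939572 and 2.13 in ACHN with DMSO, against 3.02 to 3.39 and 2.12 to 2.33 in the other lines, and the GAPDH ratio was 0.96 to 1.11 on all arrays. The part of that difference in the results was not tested.

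Across the 12093 genes the 2 ACHN arrays correlated at 0.938 with each other, and the pairs of CAKI2, A498 and CAKI1 at 0.947, 0.951 and 0.955. Within a treatment ACHN was closest to CAKI1, with 0.896 in A939572 and 0.888 in DMSO, followed by A498 with 0.866 and 0.847 and CAKI2 with 0.841 and 0.829. These correlations are across genes, which are not independent replicates.

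With each line averaged over its 2 arrays and ACHN set against the other 3 lines (limma with Benjamini-Hochberg adjustment), 0 genes passed an adjusted p of 0.05 as higher in ACHN (0%) and 0 as lower (0%). The smallest adjusted p was 0.137, and 444 genes (3.67%) had an unadjusted p under 0.05. This fit has 1 ACHN value and takes its spread from the 3 other lines, so ACHN is assumed to vary like them. When the 8 arrays were taken as separate samples with treatment as a block, 48 genes were called higher (0.397%) and 72 lower (0.595%). That count treats both arrays of a line as independent. With line added as a random block, 2 genes were called higher (0.0165%), GLUL and NRK. The 8 called lower (0.0662%) were SRGN, UCHL1, MYADM, PLAGL1, ASPH, CAVIN3, MTAP and FOCAD. This fit applies 1 correlation of 0.763 between arrays of a line to all genes. For genes whose arrays are more alike than that within a line, its p-values are too small. ACHN is still 1 line in it, so these p-values do not stand for replicate ACHN lines.

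Because the line-mean test called no gene, the genes below are described by position and size, a rule added after the data were seen: both ACHN arrays had to lie beyond all 6 arrays of the other lines, and at least 1 log2 unit from the mean of the 3 others in each treatment. By that rule 330 genes stood above (2.73%) and 322 below (2.66%). Without the filter on mean level the rule gave 470 above and 385 below. Every count of a gene group given below is read against these shares. Of the 120 genes called with 8 separate arrays, 116 were among the 652. The rule and that test use the same values, so this overlap is no separate evidence for the genes. Without CAKI1 among the other lines 554 genes stood above and 532 below. With no limit on size, 942 genes had both ACHN arrays above all others and 865 below.

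**Figure D1:**
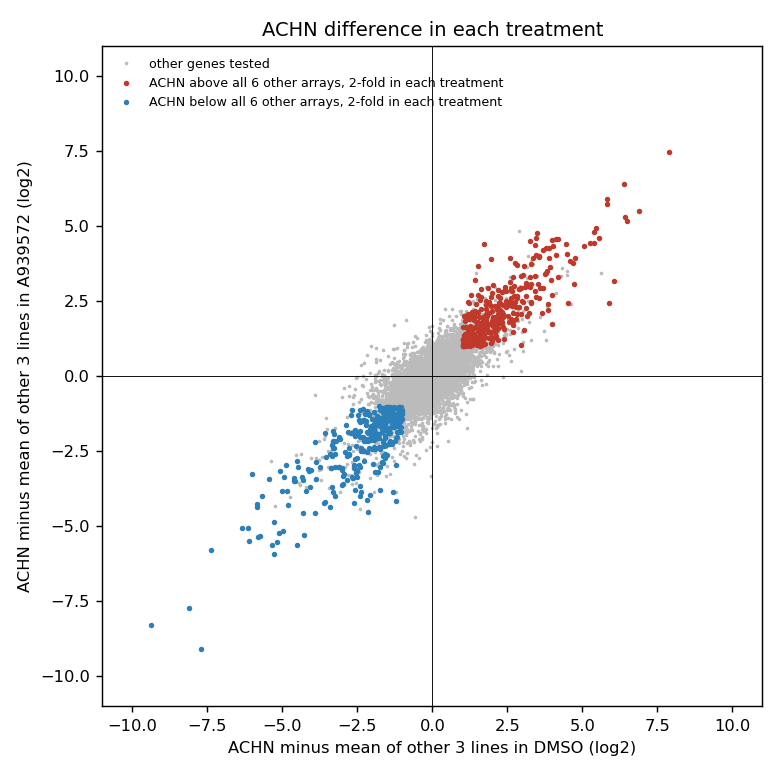
Difference of ACHN from the mean of the other 3 lines in DMSO (x axis) and in A939572 (y axis), log2 units, 1 point per gene tested. The 330 genes above all other arrays and the 322 below lie along the diagonal, up to 7.47 in A939572 and 7.90 in DMSO for CCND2 and down to -8.28 and -9.38 for SRGN.

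The difference between ACHN and the other lines was not shown to depend on the drug for any gene. When each line's A939572 minus DMSO value was compared between ACHN and the others, 0 of 12093 genes passed (limma, smallest adjusted p 0.266; 667 genes at an unadjusted p under 0.05). Without CAKI2 this test called 8 genes and without CAKI1 12. Among the 652 genes, 98 had differences that were at least 1 log2 unit apart in the 2 treatments, and 0 of the 652 passed the test of that change. THY1, a surface glycoprotein of fibroblasts and other mesenchymal cells, is such a case, with 8.53 in A939572 and 11.67 in DMSO in ACHN, against 4.42 to 6.47 in the other lines.

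Highest of all stood CCND2, which encodes cyclin D2, a partner of CDK4 and CDK6 in passage through G1. It had 13.01 in A939572 and 12.57 in DMSO in ACHN, against a lowest, median and highest level of 4.33, 4.84 and 6.31 in the other lines. On the authors' linear scale this was 8232 and 6009 signal units, against 4.0 to 59.8. The groups did not come near each other, and the difference was 7.68 ± 0.51 (SE; limma, adjusted p = 0.137). CCND2 was bright in ACHN by its brightest probe set, while 3 dimmer sets, all under the filter level, differed by 0.68 to 4.80.

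The other leading genes above the other lines have varied roles. NRK, a kinase of the germinal centre kinase family best known from embryonic muscle and placenta, had 11.41 in A939572 and 12.02 in DMSO, against 4.70 to 5.97 (6.40 ± 0.49, adjusted p = 0.137). CHRDL1, a secreted antagonist of bone morphogenetic proteins, had 11.22 in A939572 and 12.44 in DMSO, against 4.57 to 6.20 (6.20 ± 0.67). GLUL, glutamine synthetase, which joins ammonia to glutamate, had 11.85 in A939572 and 11.97 in DMSO, against 5.30 to 6.89. Its difference was 5.86 ± 0.71 in the brightest probe set and 2.26 in the next (adjusted p = 0.317, limma on line means). These 3 genes were dim on the other arrays, at most 6.89.

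FABP3, a cytosolic carrier of fatty acids, had 9.91 in A939572 and 11.82 in DMSO, against 4.16 to 5.89 in the other lines. PTGIS, prostacyclin synthase, had 11.23 in A939572 and 11.38 in DMSO, against 4.42 to 8.28, and PADI3, which converts arginine to citrulline in proteins of skin and hair, had 11.81 in A939572 and 13.55 in DMSO, against 5.46 to 8.69. The secreted chemoattractant RARRES2 (chemerin) had 11.60 in A939572 and 13.07 in DMSO, against 4.51 to 8.60. In these genes the ACHN array with A939572 was below the one with DMSO, and both remained above all others. The difference on the line means was 5.85 for FABP3, 5.09 for PTGIS, 5.88 for PADI3 and 5.78 for RARRES2, with adjusted p-values of 0.259, 1.00, 0.51 and 0.932 (limma).

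The rest of the 15 highest were EPCAM (5.09), an epithelial adhesion molecule, TUBB2B (4.91), a beta-tubulin, QPCT (4.86), glutaminyl cyclase, CLDN16 (4.70), THY1 (4.61) and the long non-coding RNAs LINC02381 (5.21) and LINC02901 (4.42). For QPCT the gap was narrow against 1 line: ACHN had 11.67 in A939572 and 12.53 in DMSO, and CAKI1 reached 10.50, while the median of the 6 other arrays was 6.21.

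**Figure D2:**
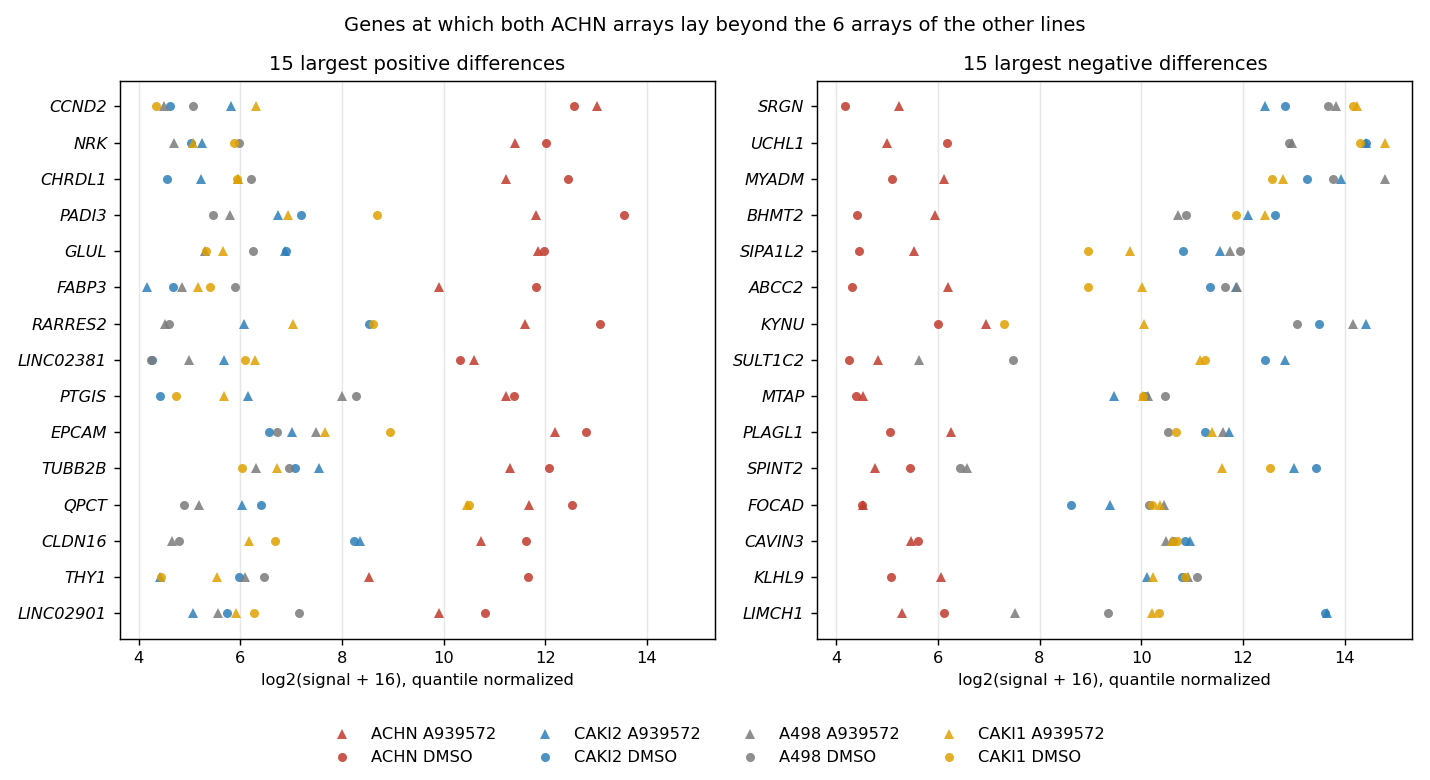
Level on each of the 8 arrays (x axis, log2(signal + 16)) for the 15 genes with the largest positive and the 15 with the largest negative difference, triangles for A939572 and circles for DMSO, ACHN in red. CCND2 and SRGN lead the panels, at 12.57 or more and at 5.23 or less in ACHN. For QPCT, KYNU, SPINT2 and SULT1C2 1 of the other lines comes close to ACHN.

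Lowest of all in ACHN was SRGN, serglycin, the core protein of secretory granule proteoglycans. It had 5.23 in A939572 and 4.18 in DMSO in ACHN, against a lowest, median and highest level of 12.44, 13.75 and 14.25 in the other lines. On the authors' linear scale this was 18.3 and 2.30 signal units, against 5555, 13390 and 20444. Both ACHN arrays lay far below every other array, and the difference was -8.83 ± 0.70 (SE; limma, adjusted p = 0.137; 0.00233 with line as a random block). A second bright probe set of SRGN differed by -6.60.

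UCHL1, a ubiquitin hydrolase abundant in neurons and some carcinomas, had 4.99 in A939572 and 6.17 in DMSO in ACHN, against 12.91, 14.36 and 14.80 in the other lines. MYADM, a membrane protein first described in myeloid differentiation, had 6.12 in A939572 and 5.11 in DMSO, against 12.58, 13.52 and 14.80. Both genes were among the bright ones in every other line and dim in ACHN. Their differences were -8.39 ± 0.74 and -7.91 ± 0.69, and the further bright probe set of each differed less, by -2.04 and -4.59.

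PLAGL1, an imprinted zinc finger factor that restrains growth, had 6.26 in A939572 and 5.06 in DMSO in ACHN, against 10.52 to 11.72. CAVIN3, which takes part in caveolae, had 5.47 in A939572 and 5.61 in DMSO, against 10.50 to 10.96. The 6 other arrays lay close together for CAVIN3 and far above both ACHN arrays. The differences were -5.53 ± 0.46 for PLAGL1 and -5.17 ± 0.45 for CAVIN3, with an adjusted p of 0.137 for both on the line means (limma), and 0.00233 and 0.00187 with line as a random block. ASPH, aspartate beta-hydroxylase, was still bright in ACHN at 10.20 in A939572 and 10.59 in DMSO, against 13.89 to 14.92 (-4.23 ± 0.36), and 6 further bright probe sets of it differed by -9.60 to -1.41.

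Some of the lowest genes were low in ACHN and also low in 1 other line, so the spread of the other lines was wide. KYNU, kynureninase of tryptophan breakdown, had 6.95 in A939572 and 6.0 in DMSO in ACHN and 10.05 and 7.31 in CAKI1, while CAKI2 and A498 had 13.07 to 14.41. SPINT2, an inhibitor of the proteases that activate hepatocyte growth factor, had 4.76 in A939572 and 5.46 in DMSO in ACHN and 6.57 and 6.43 in A498. Their differences of -5.61 ± 2.20 and -5.48 ± 2.68 had adjusted p-values of 1.00 and 1.00 (limma). The remaining genes of the 15 lowest outside chromosome 9 were BHMT2 (-6.59), a methyltransferase of methionine synthesis, SIPA1L2 (-5.80), ABCC2 (-5.70), SULT1C2 (-5.60) and LIMCH1 (-5.08).

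Among these 30 genes, 23 had either the ACHN mean or the mean of the other lines under the filter level, where the offset of 16 limits the size. With an offset of 64 the differences ran from 3.60 to 7.36 in size, against 4.42 to 8.83 with 16. With 8 separate arrays 21 of the 30 passed, but the genes had been chosen by the size of the same difference. In 5 of the 30 a further bright probe set showed less than 0.5 of the log2 difference of the brightest.

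MTAP, FOCAD and KLHL9, among the 15 lowest, lie in 1 stretch of the short arm of chromosome 9, next to the cell cycle inhibitors CDKN2A and CDKN2B. In RefSeq order, 6 consecutive tested genes stood below the other lines: MLLT3 (-3.99), a reader of acylated histones, FOCAD (-5.35), a focal adhesion protein, HACD4 (-4.64), an enzyme of very long chain fatty acid elongation, KLHL9 (-5.10), an adaptor of a ubiquitin ligase, MIR31HG (-1.89), the host transcript of a microRNA, and MTAP (-5.57), which salvages methionine and adenine from methylthioadenosine. Genes were placed in this order after their values were seen.

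MTAP had 4.54 in A939572 and 4.38 in DMSO in ACHN, against 9.46, 10.05 and 10.46 in the other lines. FOCAD had 4.54 in A939572 and 4.50 in DMSO, against 8.63, 10.18 and 10.45. HACD4 had 5.36 in A939572 and 4.23 in DMSO, against 7.80, 9.17 and 11.04. ACHN was dim for all 3 genes and the other lines were not. KLHL9 had 6.06 in A939572 and 5.08 in DMSO, against 10.11 to 11.10, and MLLT3 had 6.18 in A939572 and 5.20 in DMSO, against 8.81 to 10.33. MIR31HG was dimmer in all lines, with 5.39 in A939572 and 6.05 in DMSO in ACHN, against 6.60 to 8.74. The differences had adjusted p-values of 0.137 for MTAP, 0.409 for FOCAD and 0.164 for KLHL9 on the line means, and of 0.0033, 0.0174 and 0.067 with line as a random block (limma). Of 4 further bright probe sets of MTAP, 3 differed by -4.94 to -3.37 and 1, bright by a narrow margin, by 0.36. For KLHL9 the other bright sets differed by -3.50 and -1.81. The genes of type I interferons lie between HACD4 and MTAP, and those with a probe set were under the filter level and not tested. Among them IFNB1, named after its values were seen, had 4.44 in A939572 and 4.27 in DMSO in ACHN, against 4.45 to 9.08 in the other lines.

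The run had edges on both sides. Upstream of MLLT3, ACER2, an alkaline ceramidase, stood above the other lines (8.24 and 8.26, against 6.40 to 7.83), and RPS6, a protein of the small ribosomal subunit, was bright in ACHN (15.36 and 15.22) and elsewhere (14.93 to 15.38). PLIN2, described below among the lipid genes, also stood below and lies farther upstream, past DENND4C. Beyond MTAP, CDKN2A was dim in ACHN (6.57 and 6.56) and in the other lines (6.15 to 7.05), so its probe set separated no line from another. CDKN2B, which codes for the inhibitor p15, fell under the filter on mean level and was not tested, yet it had 9.03 in A939572 and 9.15 in DMSO in ACHN, against 4.09 to 5.02 in the other lines. On the linear scale this was 505 and 554 signal units in ACHN, against 1.01 to 17.0. CDKN2B was named after its values were seen. Farther on, ELAVL2 (6.39 and 5.55, against 4.44 to 8.61) and TUSC1 (10.60 and 10.64, against 10.66 to 11.84) overlapped with the other lines or differed by less than the size limit.

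**Figure D3:**
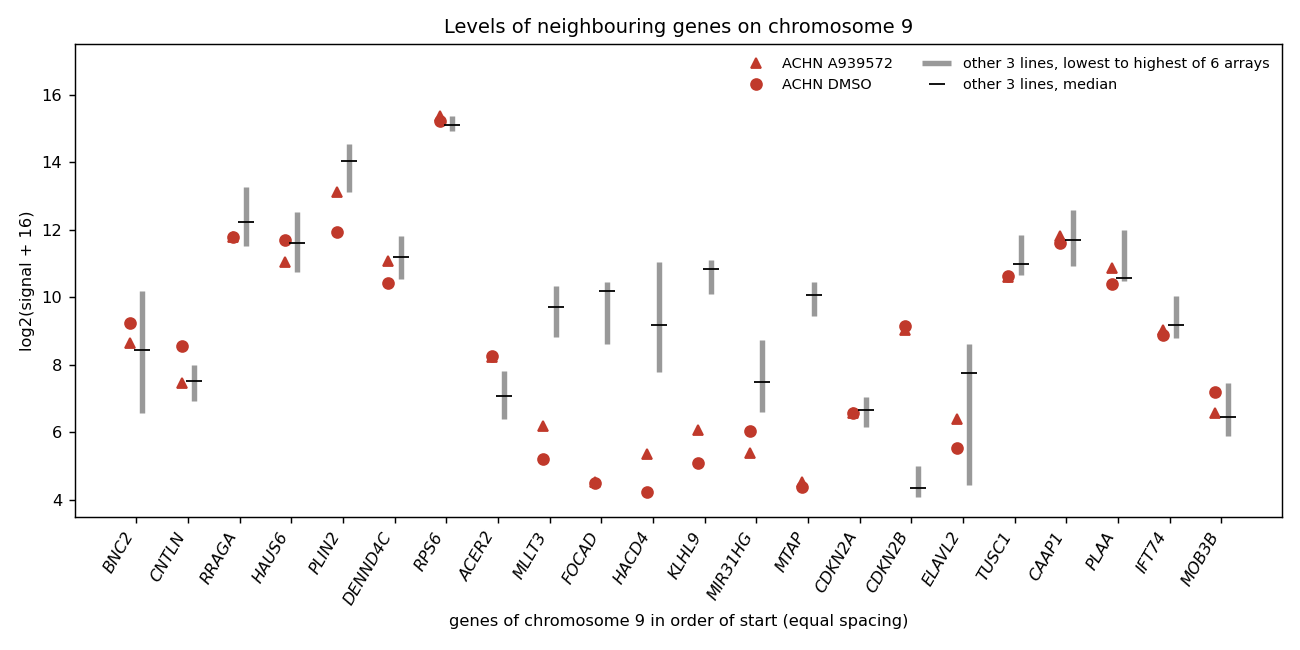
Levels (y axis, log2(signal + 16)) of neighbouring genes of chromosome 9 in order of start, evenly spaced, with ACHN in red and the range and median of the 6 other arrays in grey and black. The 6 genes from MLLT3 to MTAP are below the grey range in both ACHN arrays, and CDKN2B is above it.

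In the list of G1 cyclins, inhibitors and some 9p21 genes, 1 of 23 tested stood above (CCND2, 4.35%) and 1 below (MTAP, 4.35%). MTAP was the only gene of the low chromosome 9 run that this list held. The list's median difference was 0.11, against 0.02 over all genes tested. CDK4 had 13.29 in A939572 and 13.31 in DMSO in ACHN, against 12.09 to 13.22 in the other lines.

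CCND2, CDK4 and LINC02381 lie on chromosome 12, and the genes of that chromosome were higher in ACHN as a group. Of 663 genes tested there, 41 stood above the other lines (6.18%) and 4 below (0.603%), against 2.73% and 2.66% over all chromosomes. The median difference was 0.44, and 82.2% of the 663 genes had a difference above 0, against 51.5% of all genes. ACHN was above each line taken alone, by a median of 0.36 against CAKI2, 0.59 against A498 and 0.38 against CAKI1, and in each treatment, by 0.45 in A939572 and 0.46 in DMSO. The shift is a median over many genes of modest size and was not tested as a set.

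Among the 41 chromosome 12 genes that stood above, those named here beside CCND2 and LINC02381 were PLXNC1 (4.26), a semaphorin receptor, WNT5B (4.17), a ligand of non-canonical Wnt signalling, DTX3 (3.79), a ubiquitin ligase of the Deltex family, PKP2 (2.75), a plakophilin of desmosomes, and ITGA7 (2.51), a laminin-binding integrin. PLXNC1 had 10.60 in A939572 and 9.94 in DMSO in ACHN, against 4.62 to 6.94 in the other lines. Chromosome 20 had the lowest median of the autosomes, -0.33, with 14 of 333 genes below (4.2%) and 4 above (1.2%), followed by chromosome 19 at -0.21. Chromosome X had -0.26, with 21 of 388 genes below (5.41%). The median had 1 sign against all 3 lines on chromosomes 2, 12 and 14 (above 0) and on chromosomes 4, 8, 19, 20 and X (below 0), among them chromosome 14 with 0.25, chromosome 2 with 0.16, chromosome 8 with -0.11 and chromosome 4 with -0.07.

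**Figure D4:**
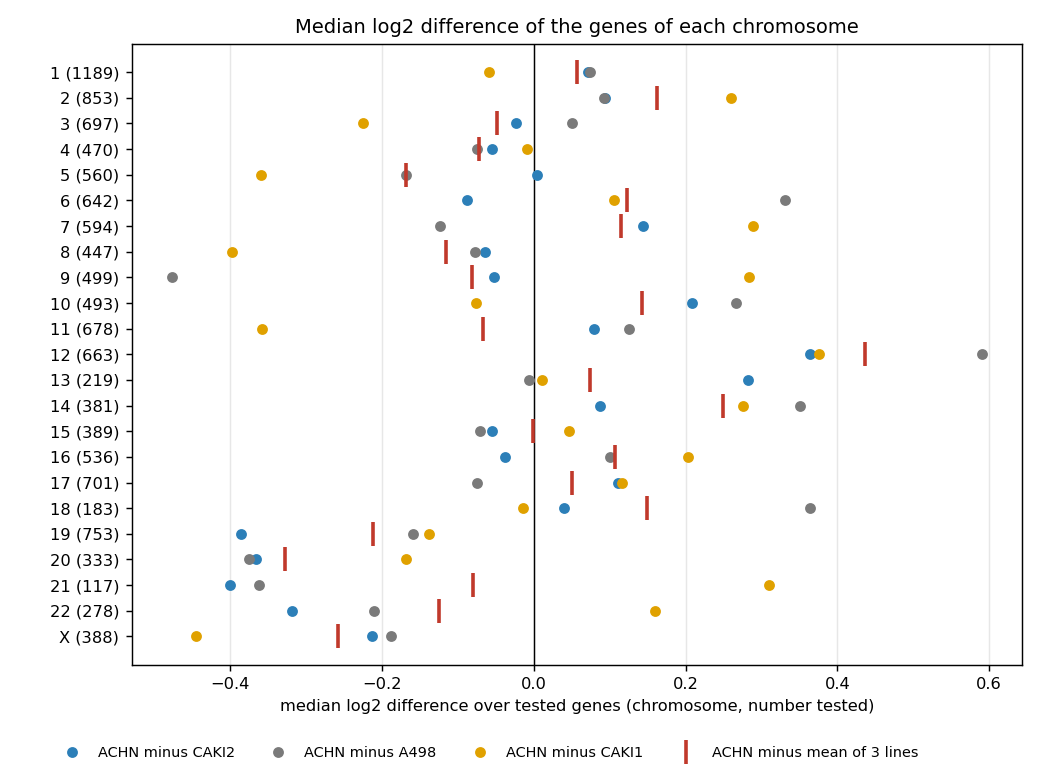
Median log2 difference (x axis) of the tested genes of each chromosome, with their number in brackets, for ACHN minus each other line (points) and minus their mean (red bars). Chromosome 12 lies above 0.36 against all 3 lines, and chromosome 20 lies below 0 against all 3.

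HOX genes, which specify position along the body axis and keep that pattern in adult cells, had positive medians against each of the other lines. Of 21 tested, 5 stood above the other lines (23.8%) and 0 below. The median difference was 0.64, 18 of 21 differences were above 0, and ACHN had medians of 0.87 over CAKI2, 0.39 over A498 and 0.78 over CAKI1. HOXC6 had 12.75 in A939572 and 12.31 in DMSO in ACHN, against 10.93 to 11.32 in the other lines (1.41 ± 0.36, limma adjusted p = 0.998). HOXC5 had 7.27 and 8.20, against 5.52 to 7.27, a narrow gap, and HOXB3 had 11.91 and 11.75, against 9.77 to 11.12. HOXB8 (1.12) and HOXB9 (1.11) were the other members, and for HOXB9 the probe sets disagreed in size. The genes of the HOXC cluster lie on chromosome 12, whose median is given above.

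Factors of the kidney lineage were not shifted together. Of 13 tested, 1 stood above (7.69%) and 2 below (15.4%), with a median of 0.02. PAX2, active in the ureteric bud and in renal tumours, had 8.88 in A939572 and 9.49 in DMSO in ACHN, against 5.88 to 8.29 in the other lines. GATA3, a factor of the nephric duct and distal nephron, had 6.74 and 6.24, against 7.65 to 10.96, and TFAP2A had 7.93 and 8.15, against 9.04 to 10.69. The differences of 2.11, -2.58 and -1.91 had adjusted p-values of 1.00, 1.00 and 0.909 (limma).

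Of the proximal tubule markers 14 of 32 with a probe set passed the filter. Of these 3 stood above (21.4%) and 1 below (7.14%), with a median of -0.11. GATM, the first enzyme of creatine synthesis, had 8.73 in A939572 and 10.22 in DMSO in ACHN, against 5.23 to 7.98. SLC17A3, an apical transporter of urate and organic anions, had 9.50 and 10.81, against 7.53 to 9.48, and the peptidase ENPEP had 9.85 and 9.70, against 7.52 to 9.24. The cadherin CDH6 ran the other way, with 4.26 and 4.58 in ACHN, against 6.76 to 11.38. ANPEP, another brush border peptidase, was dim in ACHN (5.59 and 4.30) and spanned 4.19 to 10.85 in the other lines, so the groups overlapped. The endocytic receptor LRP2 and the water channel AQP1 were dim in ACHN (6.08 and 6.28, 6.45 and 4.78) and in the other lines (at most 6.32 and 6.64), and were not tested. On the log2 scale, the summed signal of all 32 markers was 12.74 to 13.60 in ACHN, against 13.58 to 14.12 in the other lines.

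Of the markers of the loop, distal tubule and collecting duct, 7 of 27 passed the filter. Of these 2 stood above (28.6%) and 1 below (14.3%), with a median of -0.03. CLDN16, a tight junction protein of the thick ascending limb, had 10.74 in A939572 and 11.63 in DMSO in ACHN, against 4.66, 6.42 and 8.36 in the other lines (4.70 ± 1.39). MAL, a proteolipid of apical transport, had 9.86 and 10.40, against 4.60 to 8.84 (4.07 ± 1.31), while the carbonic anhydrase CA2 had 8.52 and 9.73, against 11.32 to 13.73 (-3.58 ± 0.77). The limma adjusted p-values were 1.00, 1.00 and 0.826. The summed signal of the 27 markers was, in log2, 12.31 to 12.91 in ACHN, within the 11.98 to 14.03 of the other lines.

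ACHN had more of some epithelial genes and of some mesenchymal genes at once. Of 23 epithelial junction and splicing genes, 3 stood above (13%), EPCAM, PKP2 and CRB3, and 2 below (8.7%), SPINT2 and ELF3. The median was 0.41. EPCAM had 12.19 in A939572 and 12.79 in DMSO in ACHN, against 6.57, 7.26 and 8.95 in the other lines, a difference of 5.09 ± 0.73 (limma adjusted p = 0.494). CDH1, the epithelial cadherin, was under the filter on mean level, with 6.35 in A939572 and 9.05 in DMSO in ACHN, against 4.30 to 6.12 in the other lines. Of 8 keratins tested 1 stood above (12.5%). KRT19, of simple and ductal epithelia, had 13.49 and 13.66, against 7.40 to 12.56 (3.27 ± 1.66).

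Of 22 mesenchymal genes and factors, 4 stood above (18.2%) and 1 below (4.55%), with a median of 0.26. TWIST2, a factor of mesenchymal cells, had 8.49 in A939572 and 8.85 in DMSO in ACHN, against 4.59 to 6.30 in the other lines (2.89 ± 0.64, limma adjusted p = 0.885). CCN1 and CCN2, secreted matricellular proteins, had 14.73 and 14.83 and 12.13 and 12.58, against 11.43 to 13.97 and 9.78 to 11.79. THY1 was the other gene above, and LOXL2, a collagen cross-linking oxidase, stood below (9.17 and 10.23, against 10.56 to 12.85). VIM, the mesenchymal intermediate filament, was bright in ACHN (15.25 and 15.08) and the other lines (15.12 to 15.26), and the cadherin CDH2 had 12.74 and 12.43, against 11.59 to 13.06. The fibroblast markers had 3 of 9 genes past the filter, THY1 above and FBLN1 at -1.93 with overlapping groups, and the log2 of their summed signal was 10.10 to 12.10 in ACHN, against 9.32 to 11.54.

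Interferon-stimulated genes, which cells turn on through the factor complex ISGF3 and its promoter element when interferon or viral RNA is sensed, had 7 of 45 members below the other lines (15.6%) and 0 above. These were IFI27, BST2, IFIT1, IFI44, DDX60, ISG15 and PLSCR1. The regions before the start sites of 5 of them are shown for the element, searched on both strands as GAAA followed by GAAA after any 2 bases, with overlapping matches counted. The capitals mark the matches, with up to 30 bases on each side and no base past the start site, on the gene's own strand (RefSeq, GRCh38.p14). They lie at chr14:94110598-94110680 (IFI27, plus strand), chr19:17405715-17405790 (BST2, minus strand), chr10:89392477-89392559 (IFIT1, plus strand), chr1:1013354-1013429 (ISG15, plus strand) and chr4:168318766-168318870 (DDX60, minus strand).
IFI27: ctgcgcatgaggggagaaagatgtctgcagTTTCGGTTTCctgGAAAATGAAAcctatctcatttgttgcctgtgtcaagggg
BST2: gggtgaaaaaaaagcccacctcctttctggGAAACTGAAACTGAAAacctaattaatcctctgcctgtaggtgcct
IFIT1: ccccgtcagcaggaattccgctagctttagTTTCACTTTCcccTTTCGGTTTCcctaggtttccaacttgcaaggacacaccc
ISG15: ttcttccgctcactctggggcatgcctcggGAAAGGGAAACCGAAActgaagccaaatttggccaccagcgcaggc
DDX60: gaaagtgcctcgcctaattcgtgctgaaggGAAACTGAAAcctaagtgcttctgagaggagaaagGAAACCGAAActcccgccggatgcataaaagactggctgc
Matches to these letters were in the 300-base promoter windows of 7 of the 7 genes, of 24 of 37 tested interferon-stimulated genes with a promoter in the table (64.9%), and of 269 of 9880 tested genes (2.72%). Over all 27305 promoters of the table the share was 3.65%. The list's makeup sets the first 2 shares, and a match to the letters is not a measured site.

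IFI27, a mitochondrial protein and one of the most inducible of these genes, had 4.81 in A939572 and 4.45 in DMSO in ACHN, against 7.61, 9.81 and 11.71 in the other lines (-5.07 ± 1.56). BST2 (tetherin), which holds budding virus on the cell surface, had 5.17 in A939572 and 4.39 in DMSO, against 6.67, 9.33 and 10.63 (-4.03 ± 1.40). IFIT1, a sensor of viral 5′ ends, had 8.36 in A939572 and 9.95 in DMSO, against 10.50, 11.65 and 14.18 (-2.68 ± 0.72). The first 2 were dim in ACHN, and IFIT1 was at a moderate level. ISG15, a ubiquitin-like modifier, had 9.53 and 9.48, against 9.92 to 12.80, and IFI44 had 7.35 and 8.0, against 8.11 to 11.87. The helicase DDX60 had 8.06 and 8.94, against 9.16 to 12.25, and the scramblase PLSCR1 had 10.58 and 11.01, against 11.37 to 13.10. The limma adjusted p was 1.00 for all 7.

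The list was not lowest in ACHN throughout. ACHN was the lowest line for 17 of the 45 genes, CAKI2 for 18, CAKI1 for 10 and A498 for 0. Over the 45 genes ACHN had a median level of 8.94, against 9.33 for CAKI2, 10.75 for A498 and 9.32 for CAKI1. The median difference from the mean of the lines was -0.77, and against single lines it was -1.40 for A498, -0.22 for CAKI1 and -0.10 for CAKI2. MX1 shows the overlap, with 8.52 in A939572 and 8.35 in DMSO in ACHN, against 4.63, 6.35 and 12.39 in the other lines. The factors of the pathway, IRF9 (8.69 and 8.32, against 7.78 to 9.95) and IRF7 (8.33 and 7.93, against 8.09 to 10.05), overlapped with the others.

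Antigen presentation genes had 4 of 26 tested above (15.4%) and 2 below (7.69%). The median was -0.05 (0.0014 with each array centred on its median). The 4 above were all of MHC class II, which displays peptides to helper T cells. HLA-DPA1 had 10.01 in A939572 and 10.37 in DMSO in ACHN, against 4.69, 6.31 and 7.90 in the other lines, and its partner chain HLA-DPB1 had 9.74 in A939572 and 9.33 in DMSO, against 4.56, 5.80 and 7.96. HLA-DRB1 had 8.23 and 9.16, against 6.04 to 7.70, and HLA-DQB1 had 8.25 and 8.73, against 6.52 to 7.14. These class II genes are polymorphic, and a probe set can match one allele better than another. Other parts of the class II pathway were not set apart: the invariant chain CD74 had 7.67 and 8.48, against 4.63 to 7.75, and HLA-DRA and the class II activator CIITA were dim in ACHN (4.49 and 5.83, 6.06 and 6.53) as in the other lines (at most 6.58 and 6.95). HLA-B of class I had 13.41 and 13.16, against 12.71 to 14.38. The 2 below were the peptide-trimming proteases ERAP1 (-1.72) and ERAP2 (-1.57), and 3 further bright probe sets of ERAP1 differed by 0.20 to 2.88, so that no direction holds for ERAP1.

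Detoxification enzymes and efflux pumps had 7 of 36 genes below (19.4%) and 2 above (5.56%), with a median of -0.55. ABCC2, an efflux pump for conjugated drugs and bilirubin at the apical membrane, had 6.19 in A939572 and 4.32 in DMSO in ACHN, against 8.95, 11.50 and 11.89 in the other lines (-5.70 ± 1.03). AKR1C1, AKR1C2 and AKR1C3, reductases of steroids and carbonyls, had 10.79 and 8.52, 9.52 and 7.67 and 10.94 and 9.35, against 11.67 to 15.22, 10.76 to 15.24 and 13.35 to 15.30. In all 3 the DMSO array was the lower one of ACHN. These 3 genes are related in sequence, and their probe sets may share signal. For AKR1C1, 3 further bright probe sets differed by -5.22 to -1.62, against -4.43 in the brightest. SULT1C2, a sulfotransferase, had 4.81 and 4.25, against 5.64 to 12.82, and EPHX1 (-2.29) and GSTM4 (-1.80) completed the 7.

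The median of this list was -0.30 in A939572 and -1.05 in DMSO, and -0.95, -0.56 and -0.06 against CAKI2, A498 and CAKI1. Of further single genes, NQO1 (-0.45, with overlapping groups) and TXNRD1 (15.23 and 13.54, against 14.38 to 15.39) were not set apart. TXNRD1 differed by -0.64, GCLM by -0.52 and AKR1B10 by -4.09, and these genes were not tested as a set. NNMT, nicotinamide N-methyltransferase, was the brightest gene above, with 14.34 in A939572 and 14.51 in DMSO in ACHN, against 7.09, 12.92 and 13.73 in the other lines, and CYP1B1 had 10.85 and 11.08, against 9.04 to 10.73. The spread of NNMT was wide because 1 line was low, and its difference was 3.18 ± 2.48 (limma adjusted p = 1.00).

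Targets of hypoxia-inducible factors had 3 of 37 genes below (8.11%) and 0 above, and 32 of 37 differences were below 0. The median was -0.66, and against single lines it was -1.72 for CAKI2, -0.31 for A498 and -0.30 for CAKI1. PLOD2, a collagen lysyl hydroxylase, had 11.40 in A939572 and 12.14 in DMSO in ACHN, against 13.22, 13.77 and 14.42 in the other lines (-2.09 ± 0.43, limma adjusted p = 0.746). The regulators of glycolysis PFKFB3 and PFKFB4 had 10.40 and 11.11 and 8.02 and 7.96, against 11.13 to 13.58 and 8.83 to 9.86. PGK1, a glycolytic enzyme also held among the reference genes, had both ACHN arrays below all others, but in DMSO by less than the size limit (13.61 and 14.08, against 14.51 to 15.42). VEGFA (11.72 and 10.68, against 11.10 to 14.03), SLC2A1 (10.35 and 11.22, against 10.45 to 12.44) and CA12 (8.18 and 9.0, against 8.46 to 14.60) overlapped with the other lines. The level of VHL (8.81 and 8.78, against 8.31 to 9.35), HIF1A (14.53 and 14.45, against 14.04 to 14.78) and EPAS1 (11.98 and 12.55, against 10.42 to 12.90) transcripts lay within the range of the other lines.

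**Figure D5:**
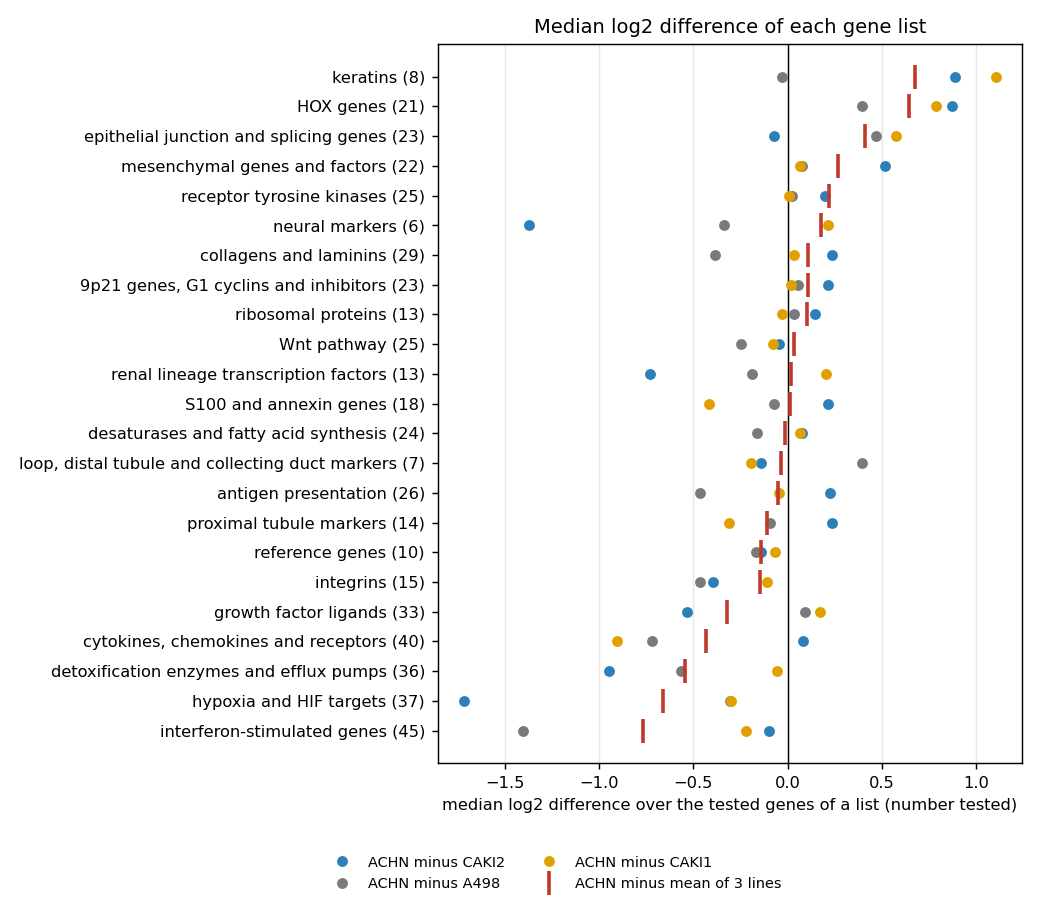
Median log2 difference (x axis) of the tested genes of each list with at least 5 tested, for ACHN minus each other line (points) and minus their mean (red bars). HOX genes lie above 0 against all 3 lines, hypoxia targets and interferon-stimulated genes lie below 0 against all 3 with 1 line far from the others.

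Secreted ligands and their receptors were divided. Of 40 cytokines, chemokines and receptors 0 stood above and 3 below (7.5%). CSF1, the macrophage growth factor, had 8.54 and 7.71, against 9.87 to 11.75. CCL5, a T cell chemoattractant, had 6.40 and 6.0, against 6.83 to 12.04. TNFSF9, the ligand of 4-1BB, had 9.67 and 9.72, against 10.45 to 11.62. The list's median was -0.44, with 0.08 against CAKI2, -0.72 against A498 and -0.90 against CAKI1. Of 33 growth factor ligands 3 stood above (9.09%) and 1 below (3.03%). INHBA, a subunit of activin, had 14.80 and 13.55, against 8.83 to 13.46. The neurotrophin BDNF had 11.45 and 11.45, against 4.39 to 11.33. BTC, a ligand of the EGF receptor, had 10.38 and 9.74, against 7.37 to 9.49. EGF itself was the one below, with 6.53 and 6.45, against 6.88 to 9.91. For BDNF the gap was narrow and only CAKI2 was low, with 5.77 in A939572 and 4.39 in DMSO. A498 had 11.04 and 11.33, and CAKI1 10.57 and 11.29.

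Of 25 receptor tyrosine kinases 1 stood above (4%) and 1 below (4%). EPHB1 was the one above (10.87 and 11.80, against 4.26 to 10.40), and FGFR3 the one below (4.15 and 4.94, against 6.28 to 8.20). MET, the receptor of hepatocyte growth factor, was bright in ACHN (14.21 and 14.08) and in the other lines (14.28 to 14.83). AXL had both ACHN arrays above all others, but in DMSO by less than the size limit (13.23 and 13.21, against 10.90 to 12.70), but a second bright probe set differed by 0.02. EGFR had 13.12 and 12.74, against 11.75 to 12.99. Of 25 Wnt pathway genes 2 stood above (8%) and 0 below. These were the ligands WNT5B (9.39 and 9.93, against 4.27 to 8.06) and WNT2B (7.95 and 8.81, against 6.70 to 6.94).

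Of the matrix genes, 3 of 29 collagens and laminins stood below (10.3%) and 0 above. These were COL5A1 (5.46 and 4.76, against 5.98 to 11.16) and COL6A1 (9.11 and 8.87, against 10.22 to 10.99). LAMA1 was the other (9.36 and 9.45, against 10.59 to 10.92). Of 15 integrins 1 stood above (6.67%) and 2 below (13.3%). ITGA7 was the one above (8.46 and 8.56, against 5.03 to 7.28). ITGB3 (8.75 and 8.80, against 9.19 to 11.92) and ITGAX, an integrin known from myeloid cells (6.11 and 5.67, against 6.63 to 8.21), were below. For ITGB3, 5 further bright probe sets differed by -1.24 to -0.61, against -2.02 in the brightest. CAKI1 came close to ACHN there, with 9.19 in A939572 and 9.22 in DMSO. ITGB8 had 8.94 and 10.34, against 10.25 to 14.01, and the groups overlapped. Of 24 genes of fatty acid desaturation, synthesis and storage 1 stood above (4.17%), FABP3, and 1 below (4.17%), PLIN2. PLIN2, the coat protein of lipid droplets, had 13.12 and 11.94, against 13.13 to 14.54. The list's median was -0.02 (0.02 with median centring). For PLIN2 the gap was very narrow, and a further bright probe set differed by -0.64, against -1.41 in the brightest. SCD, the target of the drug, had 13.32 in A939572 and 14.26 in DMSO in ACHN, against 13.92, 14.50 and 14.90 in the other lines, and its difference was -0.69 ± 0.29 (limma adjusted p = 1.00).

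In the remaining lists few genes stood apart. Of 18 S100 and annexin genes 0 stood above and 0 below, the largest difference being ANXA10 at -3.30 with overlapping groups. Of 36 genes listed as cancer-testis genes 32 were not tested, among them MAGEA1, MAGEA4 and SSX1. Of the 4 tested 1 stood above (25%). It was BEX1 (8.76 and 7.94, against 6.06 to 6.76), which is not of the MAGE, GAGE or SSX families. Of 6 neural markers 1 stood below (16.7%), NCAM1 (5.97 and 5.0, against 6.20 to 10.35). Of 3 podocyte markers 0 stood apart, with PODXL at 0.76 and SYNPO at 0.78. The log2 of the summed signal of the neural markers was 13.44 to 13.77 in ACHN, against 13.24 to 15.33, and that of the podocyte markers 12.31 to 12.69, against 11.46 to 12.50. Of 10 reference genes and 13 ribosomal protein genes, 0 stood apart, with medians of -0.14 and 0.10. GAPDH had 15.21 and 15.12, against 15.10 to 15.36, and RPL11 had 14.63 and 14.63, against 13.87 to 14.60. The leukocyte marker CD79A (0.32) and the endothelial marker PECAM1 (-0.56), the 2 of those lists that passed the filter, overlapped with the other lines.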

How the data were processed

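RNA of 8 cultures was measured on Affymetrix Human Genome U133 Plus 2.0 arrays. The authors deposited linear signal intensity values, scaled to a common trimmed mean per the values of the deposited table. For the tool behind these values, the sources used here give none. The number of arrays limits the precision. The p-values on line means set the ACHN difference against the spread of the other lines. Those with 8 separate arrays use a spread that also includes arrays of the same line. The test of the A939572 minus DMSO value uses the spread of that value between the other lines.

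From these, 62 control probe sets were left out of 54675, 16 was added, log2 taken and the arrays quantile normalized. Of the rest 41091 name 1 gene in the platform annotation, 1801 several and 11721 none. Symbols were updated through 41037 matching gene IDs (GRCh38.p14), and the brightest probe set stood for a gene. limma 3.58.1 in R 4.3.3 (lmFit, eBayes with trend, 2-sided, Benjamini-Hochberg over 12093 genes) compared the ACHN mean with the 3 other line means, with 2 residual and 2.94 prior degrees of freedom. The steps were tested on simulated data.

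The rule named the 15 highest and 15 lowest genes set apart by test in both treatments, up to 4 members a list (or 2 where none was set apart) and SCD. No gene passed, so the 15 and 15 were taken from those standing apart by position and size, a rule added after seeing the data, and further members were named after their values were seen. The gene lists (29) and the comparison were chosen with earlier results of these data known. Y-linked genes and XIST are not named. Alternatives were other normalizations, offsets, filters, probe set rules, fits, each treatment alone and each other line left out.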

Additional observations from a re-analysis of the deposited data

How the results depend on the processing

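The count of 0 genes called on the line means became 6 lower with a filter at the 75th percentile. With 8 separate arrays it became 48 higher and 72 lower (48 and 69 with the limits on position and size added), and with line as a random block 2 higher and 8 lower. The test of the A939572 minus DMSO difference gave 0 to 12 genes when CAKI2, A498 or CAKI1 was left out. The 330 genes above and 322 below by position and size became 470 and 385 with no filter. The filter uses the mean of 2 ACHN and 6 other arrays, so a gene bright in ACHN alone is more readily left out. With the 75th-percentile filter the counts were 118 and 164. They were 692 and 808 on the DMSO arrays alone and 693 and 717 on the A939572 arrays alone. With a line left out they were 380 to 554 and 409 to 532, most without CAKI1 (554 and 532). Of the 652 genes, 636 remained without further normalization, 623 with median centring, 618 with an offset of 1, 552 with an offset of 64 and 419 with each gene taken as its probe sets' mean. ERAP1 reversed, with a difference of 0.37 for the mean of its probe sets and 2.88 without sets that can match several transcripts. The arrays of a line are paired through the line, and the test of the A939572 minus DMSO difference and the random block use that pairing. With 1 ACHN line, what belongs to ACHN and what belongs to its culture or array run cannot be told apart, and dim signals limit the size of most of the largest differences.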
